A study of Mus musculus with 59 samples.

Results

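This account is about 4 RNA-seq libraries of a mouse T cell line, 2 that received TCF-1 without its HMG box (DHMG) and 2 that received an empty retrovirus (EV). They were chosen by their treatment labels from 59 samples. The line, scid.adh, derives from a thymic lymphoma and resembles immature thymocytes, and in it Tcf7, the gene for TCF-1, had been knocked out. Both groups therefore lack the intact gene, and both were sorted as live transduced cells 72 h after transduction. The DHMG cells carried a retrovirus labelled DHMG TCF-1, read here as the form that lacks the HMG box. The EV cells carried the retrovirus without an insert. The 10 further libraries of the line, with 5 other TCF-1 retroviruses (DL1, DL2, DL6, DL7 and WT, 2 libraries each), gave the spread of the fit and a range to compare with. The labels do not say whether the line is 1 clone or whether replicates are separate cultures, so p-values measure only how far these libraries differ among themselves, a spread that may be technical.

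TCF-1 is a transcription factor that helps progenitors become T cells. Its HMG box is the part that binds and bends DNA, at sites close to CTTTGA, and another part of the protein binds beta-catenin, the effector of Wnt signalling. A form without the box lacks the part that contacts DNA. Setting DHMG against EV asks what that form changes in cells that have no other intact TCF-1. Setting DHMG against WT asks where it differs from the form that keeps the box.

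Levels are given in CPM, reads of a gene relative to all reads in genes, scaled between libraries by TMM. Fold changes are DHMG over EV unless another pair is named. Each SE is on the log2 scale and was worked back from the log2 fold change and its test statistic. It is not an estimate separate from that test. A gene is called higher or lower where its adjusted p was under 0.05 by the quasi-likelihood test of edgeR, adjusted by Benjamini-Hochberg across the 10939 genes tested. The DHMG libraries held 4.46 and 3.82 M reads in genes, against 7.19 and 5.66 M in the EV libraries. Low genes were thus measured with fewer reads in DHMG.

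Tcf7 (GRCm38 chromosome 11, positions 52252371 to 52283014, minus strand) was measured first, since it shows whether the insert was read. It stood at 3772 and 3735 CPM in the DHMG libraries, against 565 and 551 CPM in the EV libraries. The groups did not overlap, and the rise was 6.72-fold (SE 0.05, adjusted p = 6.03e-38). The DHMG level also lay above every other library of the line, of which the highest held 2663 CPM, and was 2.12-fold that of WT (adjusted p = 6.42e-23). The EV cells carry no insert, and where their reads arise in the knockout gene was not tested. Counts over the whole gene do not show which segment the retrovirus lacks.

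The DHMG libraries differed from all 12 others of the line in ways that concern the library as well as single genes. Nuclear ribosomal RNA genes took 14.7% and 14.6% of counted reads in DHMG, against 4.58% and 4.33% in EV, and 4.33% to 7.01% in all 12 others. Reads on the strand opposite to the gene made up 8.56% and 8.49% of stranded gene reads in DHMG, against 5.57% and 5.44% in EV. For each 100 reads in genes there were 57.0 and 57.1 reads with several alignments in DHMG, against 38.5 and 38.0 in EV. None of these 3 measures overlapped between DHMG and the other 12 libraries. The file names of the 12 other libraries share a number that those of the 2 DHMG libraries lack, and the labels do not say what it stands for. Every result below that rests on DHMG carries this difference, and a separate run or sub-line, neither of which the labels name, cannot be told apart from the construct.

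**Figure D1:**
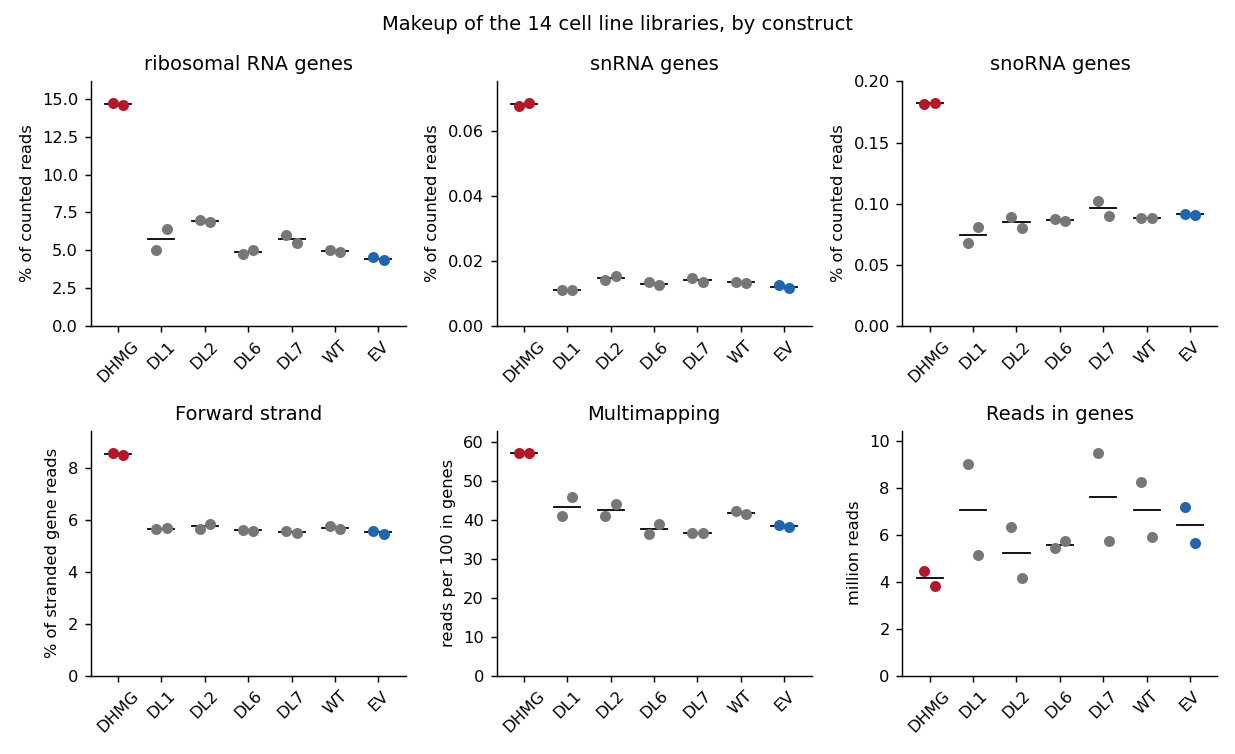
Makeup of each of the 14 cell line libraries, by construct; each point is 1 library and each short line the mean of the 2. The upper row gives the share of counted reads in 3 RNA classes, and the lower row gives forward-strand reads, multimapping reads and the depth. The 2 DHMG libraries lie apart from the 12 others in all panels but the depth, where they held 4.46 and 3.82 M reads.

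Genes of the Y chromosome marked the same separation. Ddx3y, an RNA helicase gene, stood at 1.05 and 1.83 CPM in DHMG, against 18 and 22.4 CPM in EV. Kdm5d, a histone demethylase gene, stood at 1.31 and 0 CPM in DHMG and at 11.1 and 12.8 CPM in EV. Uty, a related demethylase gene, stood at 2.35 and 0.609 CPM in DHMG and at 9.21 and 11.3 CPM in EV. All 3 were called lower (adjusted p = 1.01e-12 for Ddx3y, 5.89e-09 for Kdm5d and 6.83e-06 for Uty). Summed with Eif2s3y, they reached 4.97 and 2.44 CPM in DHMG, against 38.6 and 46.4 CPM in EV and no less than 30.4 CPM in any of the 12 others. In bulk RNA, fewer cells with a Y chromosome and less of these RNAs per cell cannot be told apart, and neither can be told from the construct. The X chromosome had a median log2 fold change of 0.05 over 350 genes tested. Medians of the 19 autosomes lay between -0.05 and 0.04, and those of 222 windows of 10 Mb between -0.15 and 0.23. For WT over EV the same windows spanned -0.34 to 0.23.

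Between DHMG and EV 1054 genes were called higher and 817 lower, which is 9.64% and 7.47% of the genes tested and 17.1% together. The filter on low counts let in 113 genes only through the DHMG libraries and 78 only through the EV libraries, and such genes had to differ. Without the 113, 996 genes were higher and 817 lower. These genes stay in the other counts given. The groups did not overlap in 57.8% of all genes, and 29.1% had an unadjusted p under 0.05. Of the 1871 genes called, 161 were at least 2-fold higher and 80 at least 2-fold lower, or 1.47% and 0.731% of all genes tested. The other constructs are set beside this from the same fit, with the same EV libraries. The share called against EV was 24.9% for WT, 11% for DL1, 5.06% for DL2, 2.78% for DL7 and 1.5% for DL6. Any single library carried weight in the DHMG count. Without DHMG replicate 1 or 2 it was 1053 or 1052 genes, without EV replicate 1 or 2 it was 1119 or 1239, and DESeq2's Wald test called 1198 on all libraries. When each library was corrected for exon length and GC content, 997 genes were higher and 474 lower, so 67.8% of calls were higher, against 56.3% without the correction. With no filter on low counts 813 were higher and 841 lower, which turned the balance round, and with ribosomal RNA and mitochondrial genes removed 962 were higher and 892 lower.

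The group that stood farthest from the rest of the line was DHMG. In 1629 genes (14.9%) both DHMG libraries lay above or both below all 12 others, 904 above and 725 below. The same count was 1321 for WT, 799 for DL7, 486 for EV, 330 for DL1, 313 for DL2 and 272 for DL6. Of the 1871 genes called against EV, 47.2% had both DHMG libraries outside the 12 others, namely 566 of those higher and 318 of those lower. The other 987 had DHMG levels that at least 1 other library of the line also reached. The 904 and the 566 include genes that passed the filter on low counts only through the DHMG libraries.

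**Figure D2:**
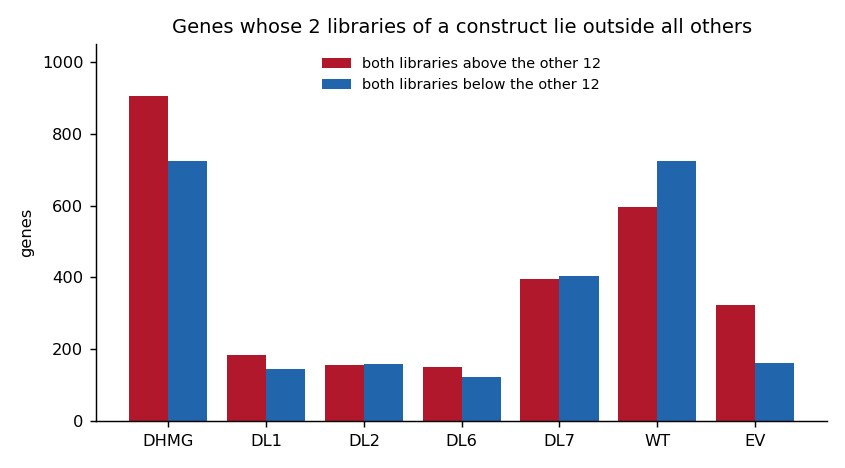
Number of genes whose 2 libraries of a construct both lie above, or both below, the other 12 cell line libraries, with constructs on the x axis and genes on the y axis. DHMG has 904 above and 725 below, WT 597 and 724, and the remaining constructs fewer.

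The 12 largest rises and falls named here are those of called protein-coding genes whose groups did not overlap, at a mean of at least 5 CPM in the higher group. The largest rise was in Cadps2, which encodes a protein of vesicle release. It held 4.44 and 7.31 CPM in DHMG and 0.813 and 0 CPM in EV (12.4-fold, SE 0.63, adjusted p = 3.57e-05). Its EV level was near 0, and its log2 fold change of 3.63 became 8.16 without EV replicate 1. Lars2, the mitochondrial leucyl-tRNA synthetase gene, held 2847 and 2839 CPM in DHMG, against 697 and 576 CPM in EV (4.46-fold, SE 0.11, adjusted p = 4.83e-21). Whether ribosomal RNA reads, which are more frequent in the DHMG libraries, are counted at Lars2 was not tested. The predicted gene Gm10800 rose 5.96-fold (SE 0.26) and the histone genes Hist2h2bb and Hist1h4n rose 3.55-fold and 2.98-fold. Rps29, which encodes a ribosomal protein, rose 2.04-fold. All of these lay above the 12 other libraries. Tcf7 ranked after Cadps2. The calls of the other 5, Tenm1, Fgfbp1, Lhfpl2, Rbfox2 and Grhl1, were all lost without EV replicate 1. Those of Tenm1, Fgfbp1, Rbfox2 and Grhl1 were also lost without DHMG replicate 1, those of Lhfpl2, Rbfox2 and Grhl1 without DHMG replicate 2, and that of Rbfox2 without EV replicate 2. Their mean levels in DHMG were 5.55 to 7.23 CPM.

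The largest fall was in Ndrg1, a stress-responsive gene that low oxygen induces. A single read was counted in the 2 DHMG libraries together, at 0 and 0.305 CPM, against 60.4 and 57.0 CPM in EV. The ratio of DHMG to EV was 0.00239, with an exact 95% interval of 6.04e-05 to 0.0133 that covers counting error only. The groups were far apart, and the call (adjusted p = 1.13e-24) held in every alternative tried. Across the line the gene stood at 1.43 and 2.22 CPM with DL1, 3.62 and 3.91 CPM with WT and 156 to 204 CPM with DL2, DL6 and DL7.

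Of the other largest falls outside the Y chromosome, Bnip3, a mitochondrial protein gene of the low-oxygen response, held 1.83 and 3.96 CPM in DHMG and 18.4 and 16 CPM in EV (6.11-fold lower, SE 0.29, adjusted p = 2.59e-09). Txnip, an inhibitor of thioredoxin that responds to glucose, held 10.5 and 7.92 CPM in DHMG and 31.4 and 33.8 CPM in EV (3.51-fold lower, SE 0.19, adjusted p = 3.08e-10). Zcchc14, a zinc finger gene, fell 4.33-fold and Fam102a 2.79-fold. Eya2, a transcriptional coactivator gene, fell 2.76-fold and Map3k14, the kinase NIK of noncanonical NF-kB signalling, fell 2.73-fold. WT against the same EV libraries showed Txnip 3.08-fold lower and Zcchc14 16-fold lower. In the direct test Txnip did not pass between DHMG and WT (adjusted p = 0.644), and Zcchc14 was 3.69-fold higher in DHMG than in WT (adjusted p = 0.0104). Slc6a20a and Slc27a3, which encode transporters, completed the 12 falls at 3.44-fold and 2.79-fold lower. The calls of Slc6a20a and Eya2 were lost without DHMG replicate 1, and that of Slc27a3 without DHMG replicate 2 or EV replicate 2.

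**Figure D3:**
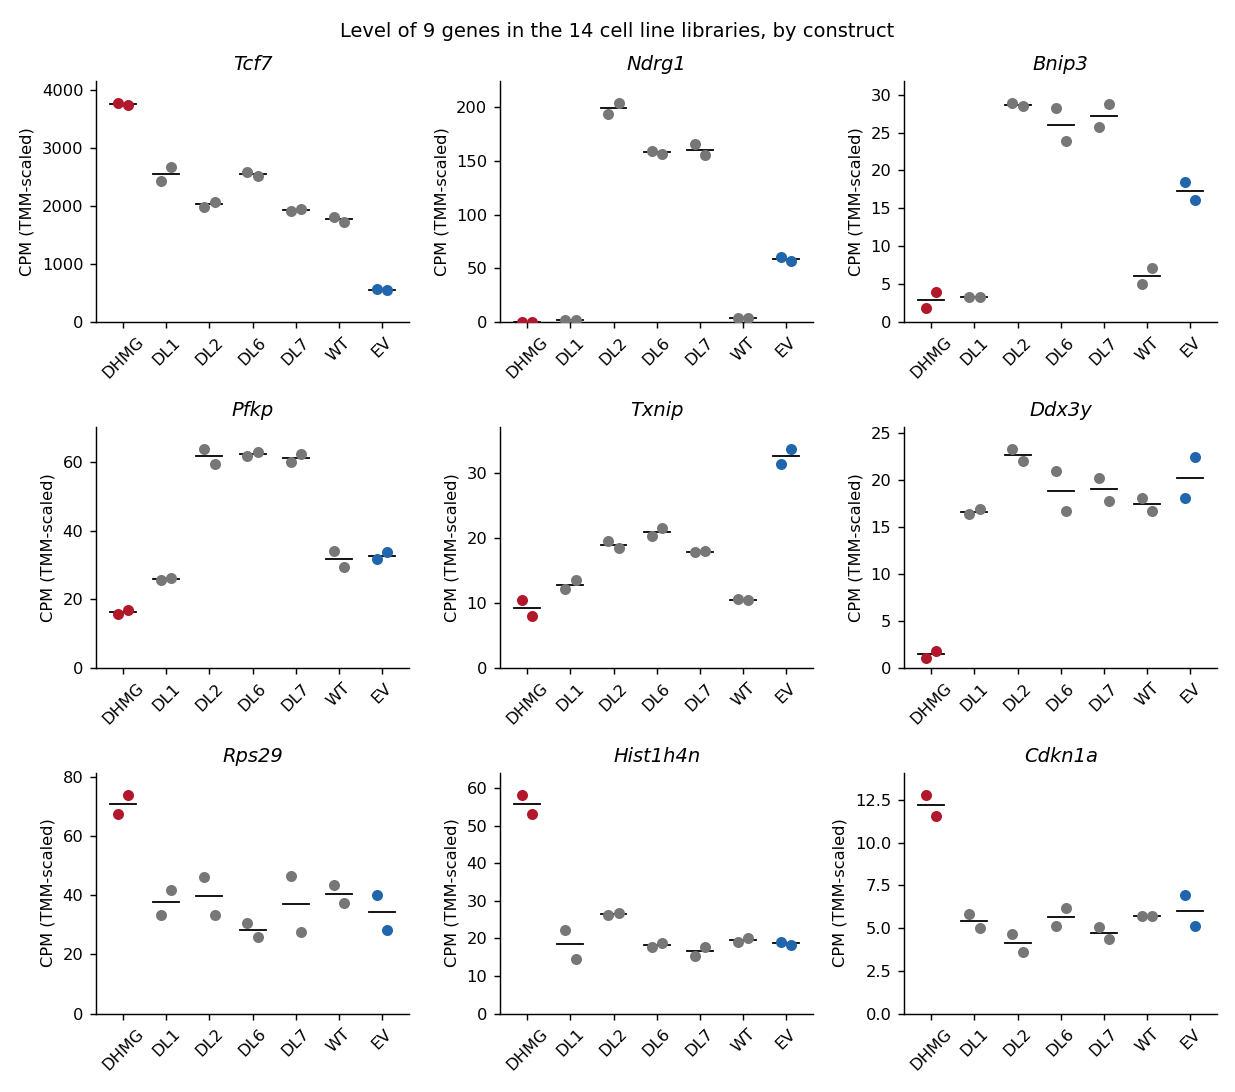
Level of 9 genes in CPM (y axis, from 0) in each of the 14 cell line libraries, by construct (x axis); points are libraries and short lines their means. Ndrg1 is at 0 and 0.305 CPM with DHMG and at 60.4 and 57.0 CPM with EV, and 156 to 204 CPM with DL2, DL6 and DL7, while Rps29, Hist1h4n and Cdkn1a are higher with DHMG than in all 12 others.

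Genes that low oxygen induces fell as a group. Cells sense oxygen through prolyl hydroxylases that mark the factor HIF-1 alpha for destruction. When oxygen is short the factor persists and turns on genes for glucose uptake, glycolysis and mitochondrial turnover, at sites with the core ACGTG. Of 21 such genes tested 15 were called lower and 0 higher, where 7.47% of all genes were lower. The median log2 fold change of the 21 was -0.59, against -0.00 for all genes tested. DESeq2's Wald test also called 15 lower and 0 higher, and leaving out any 1 of the 4 libraries left 13 to 15. Ndrg1 and Bnip3 head this list and are described above.

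Genes of the oxygen sensing pathway itself were among them. Egln3, one of the prolyl hydroxylase genes, held 61.4 and 65.2 CPM in DHMG, against 101 and 95.4 CPM in EV (1.56-fold lower, SE 0.09, adjusted p = 4.92e-07). Kdm3a, a histone demethylase gene, held 86.5 and 90.8 CPM in DHMG, against 148 and 145 CPM in EV (1.66-fold lower, SE 0.08, adjusted p = 6.52e-10). Both genes were below all 12 other libraries in DHMG. Egln1, another prolyl hydroxylase gene, had a log2 fold change of -0.31 (adjusted p = 0.0121). Vegfa, the vascular growth factor gene, had -0.74, the glucose transporter gene Slc2a1 had -0.80 and Ankrd37 had -1.34, all called. Hif1a, which encodes the sensed factor, had 0.18 and was not called (adjusted p = 0.0826).

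The promoters of these genes were searched for ACGTG or its reverse complement CACGT, in the 250 bases before and 50 after the start given by RefSeq for GRCm38.p6. Of the 15 genes called lower 12 were in the promoter table, and 8 of the 12 held the letters, or 66.7%. Among 7619 promoters of genes tested the share was 27.2%, and among all 19113 promoters it was 20.7%. It was 29% among all genes called higher and 23.4% among all called lower. The list was made of known targets of HIF-1 alpha, so the share of its promoters is no independent result. The match is a description of letters and not of binding, and CACGTG holds both forms at 1 place. The promoters of Kdm3a, Narf, Stc2 and Vegfa, genes also called lower, held neither form. The 3 shown, all with the letters, belong to Bnip3, Ankrd37 and Egln3, which had log2 fold changes of -2.61, -1.34 and -0.64. Each is on the minus strand and is written 5′ to 3′ along the gene, with ACGTG or CACGT in capitals, at chr7:138909457-138909756, chr8:45999801-46000100 and chr12:54203825-54204124.
Bnip3: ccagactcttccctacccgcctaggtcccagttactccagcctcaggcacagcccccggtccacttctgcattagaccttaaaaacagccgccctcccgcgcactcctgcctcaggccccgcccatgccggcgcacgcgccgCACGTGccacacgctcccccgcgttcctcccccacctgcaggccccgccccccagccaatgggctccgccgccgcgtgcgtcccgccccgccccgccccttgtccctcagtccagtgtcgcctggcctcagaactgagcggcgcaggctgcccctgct
Ankrd37: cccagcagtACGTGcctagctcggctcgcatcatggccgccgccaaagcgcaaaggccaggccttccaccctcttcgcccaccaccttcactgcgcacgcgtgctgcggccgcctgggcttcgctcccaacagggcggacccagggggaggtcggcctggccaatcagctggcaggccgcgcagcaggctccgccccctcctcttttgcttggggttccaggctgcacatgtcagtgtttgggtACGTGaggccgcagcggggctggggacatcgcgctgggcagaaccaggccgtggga
Egln3: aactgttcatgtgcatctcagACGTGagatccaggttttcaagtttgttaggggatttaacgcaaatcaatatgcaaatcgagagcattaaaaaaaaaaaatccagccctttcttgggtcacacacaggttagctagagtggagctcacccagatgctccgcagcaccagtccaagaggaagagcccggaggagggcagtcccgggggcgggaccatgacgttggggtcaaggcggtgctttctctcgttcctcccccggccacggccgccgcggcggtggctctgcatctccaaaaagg

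Glycolysis genes, many of them also known targets of the same factor, were lower in part. Of 16 tested 8 were called lower and 1 higher, where 7.47% of all genes were lower and 9.64% higher, with a median log2 fold change of -0.18. Pfkp, a phosphofructokinase gene of the pathway's committed step, held 15.7 and 16.8 CPM in DHMG, against 31.7 and 33.8 CPM in EV (2.02-fold lower, SE 0.15, adjusted p = 1.70e-06). Its relative Pfkl held 164 and 162 CPM in DHMG and 250 and 248 CPM in EV (1.53-fold lower, SE 0.06, adjusted p = 5.31e-10). Aldoa, the aldolase gene, and Ldha, the lactate dehydrogenase gene, fell 1.31-fold and 1.21-fold. All 4 were below the 12 other libraries in DHMG. Slc16a1, a lactate transporter gene, was the 1 called higher, and without EV replicate 1 the count called lower was 5.

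Across the line these 2 gene groups were not at 1 level. Beside the 15 of 21 low-oxygen genes called lower with DHMG stand 11 lower with DL1 and 10 lower with WT, all against the shared EV libraries. With DL2, DL6 and DL7 none were called lower, and 12, 10 and 9 were called higher. Glycolysis genes gave 8 lower with DHMG, 8 lower with DL1 and 6 lower with WT, against 12, 11 and 11 higher with DL2, DL6 and DL7. In the direct test of DHMG against WT 10 low-oxygen genes were lower and 0 higher, where 5.59% of all genes were lower.

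**Figure D4:**
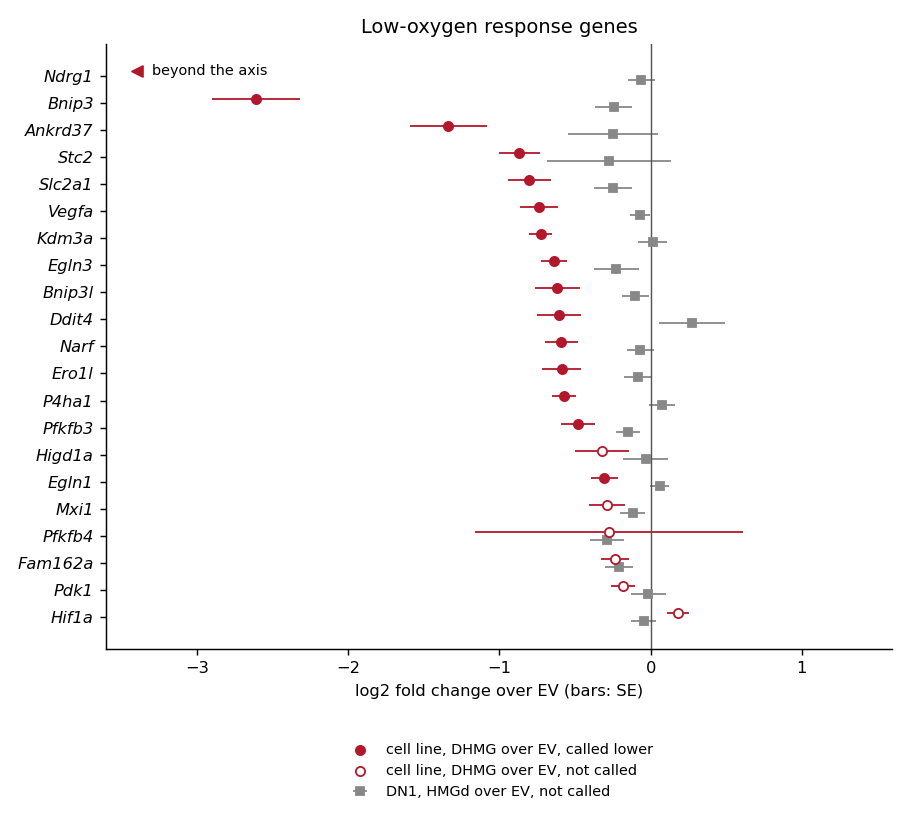
Log2 fold change over EV (x axis, bars give the SE) of the 21 low-oxygen genes tested in the cell line (y axis), for DHMG in the line (red circles, filled where called lower) and HMGd in DN1 cells (grey squares). In the line 15 are called lower and Ndrg1 lies beyond the axis; in DN1 cells none is called.

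Many genes of protein synthesis rose. Ribosomal protein genes were higher in 58 of 80 tested and lower in 0, where 9.64% of all genes were higher and 7.47% lower, with a median log2 fold change of 0.28. Rpl41 held 722 and 727 CPM in DHMG, against 467 and 424 CPM in EV (1.62-fold, SE 0.06, adjusted p = 5.94e-13). Rpl30 rose 1.67-fold and Rps20 1.32-fold. After correction for exon length and GC content 42 of the 80 were higher and 0 lower, with a median of 0.20. These genes are short and have near-identical pseudogene copies, so their counts are less certain than those of other genes. WT against the same EV libraries had 55 higher and 0 lower. In DHMG against WT 22 were higher and 2 lower.

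Against the same 9.64% of all genes higher, ribosome biogenesis genes were higher in 22 of 40 and lower in 0, with a median log2 fold change of 0.23, and in 13 without DHMG replicate 1. Ncl, the nucleolin gene, held 6056 and 6058 CPM in DHMG, against 4481 and 4468 CPM in EV (1.35-fold, SE 0.05, adjusted p = 3.65e-10). Npm1, the nucleophosmin gene, rose 1.27-fold and Grwd1, a ribosome assembly factor gene, 1.58-fold. This rise was not particular to DHMG. Among the 40 genes the WT libraries had 24 higher and 1 lower than EV, and the DL1 libraries had 17 higher. DL2 reached 2 higher, while DL6 and DL7 stayed at 0. Compared directly, DHMG had 5 of the 40 higher than WT and 5 lower. Genes of the amino acid response driven by ATF4 were higher in 12 of 24 and lower in 0, and higher in 7 without DHMG replicate 1. Psat1, an enzyme gene of serine synthesis, held 193 and 214 CPM in DHMG, against 145 and 136 CPM in EV (1.45-fold, SE 0.08, adjusted p = 6.73e-07). Shmt2, a one-carbon enzyme gene, and the tRNA synthetase genes Nars and Gars rose 1.27-fold, 1.33-fold and 1.27-fold. Of these 24 amino acid response genes, 17 were higher in the WT libraries than in EV, and 11 in the DL1 libraries. The counts for DL2, DL6 and DL7 were 5, 1 and 2. Compared directly, DHMG had 2 of the 24 higher than WT and 5 lower.

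Chaperone genes were called higher as well, where 9.64% of all genes were. Heat shock genes were higher in 10 of 13 and lower in 0, with a median log2 fold change of 0.33. Hspd1, the mitochondrial chaperonin gene, held 611 and 583 CPM in DHMG, against 403 and 401 CPM in EV (1.49-fold, SE 0.06, adjusted p = 3.65e-10). Hsp90aa1 and Hsp90ab1, genes of the cytosolic HSP90 chaperone, rose 1.31-fold and 1.24-fold. Genes of the unfolded protein response were higher in 9 of 19 and lower in 1. Calr, a chaperone gene of the endoplasmic reticulum, held 740 and 743 CPM in DHMG and 540 and 535 CPM in EV (1.38-fold, SE 0.06, adjusted p = 2.61e-08). Edem1 was the 1 lower. With WT, 10 of the 13 heat shock genes and 12 of the 19 unfolded protein response genes were higher than in the same EV libraries. These counts were 6 and 5 with DL1, 1 and 0 with DL2, and 0 and 0 with DL6 and with DL7.

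**Figure D5:**
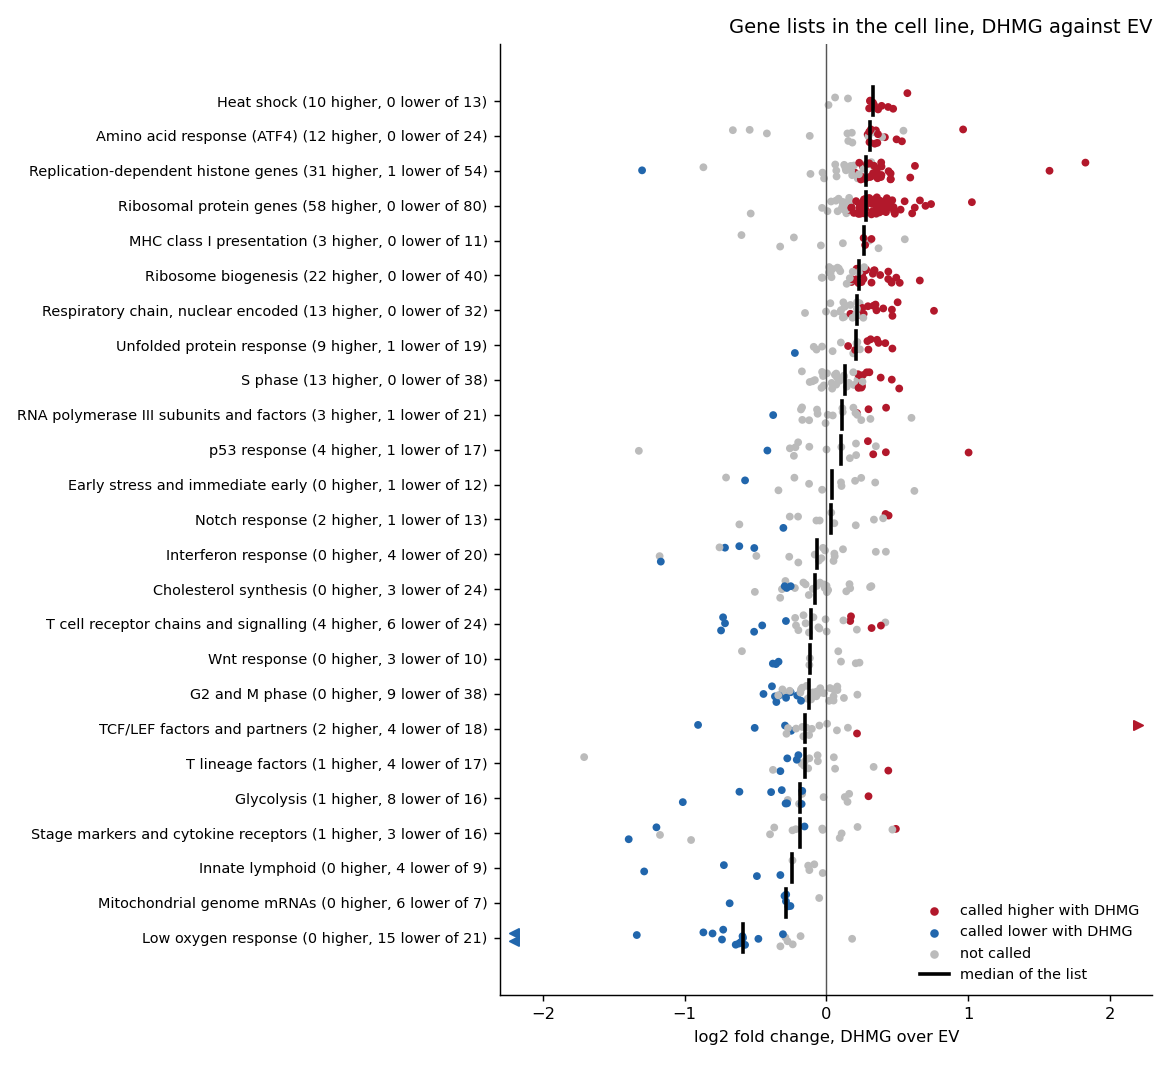
Log2 fold change of DHMG over EV (x axis) for every tested member of 25 gene lists (y axis, ordered by median). Points are genes, red where called higher and blue where called lower, black bars are medians and arrowheads are genes beyond the axis. The low-oxygen list has the lowest median, -0.59, and the heat shock list the highest, 0.33.

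Respiratory chain genes differed by genome, where 9.64% of all genes were higher and 7.47% lower. Those encoded in the nucleus were higher in 13 of 32 and lower in 0, with a median log2 fold change of 0.21. Without DHMG replicate 1 or 2 the count was 8 or 7. Atp5b, a subunit gene of ATP synthase, held 1714 and 1659 CPM in DHMG, against 1297 and 1256 CPM in EV (1.32-fold, SE 0.05, adjusted p = 3.75e-09). Cycs, the cytochrome c gene, rose 1.69-fold. Of the 32 nuclear genes 29 were higher with WT against the same EV libraries, 9 with DL1, 2 with DL2 and 0 with DL6 and DL7. In DHMG against WT 1 of the 32 was higher and 9 were lower. After correction for exon length and GC content 9 were higher and 1 lower in DHMG against EV, with a median of 0.15. Of 7 mRNAs of the mitochondrial genome 6 were lower and 0 higher, with a median log2 fold change of -0.28. The largest of these falls was in mt-Nd6, at 140 and 127 CPM in DHMG and 212 and 218 CPM in EV (1.6-fold lower, SE 0.08, adjusted p = 2.03e-09). Its rank depends on the setting. Over the alternatives its log2 fold change ran from -0.809 to -0.2, and that of mt-Nd1 from -0.351 to -0.276. The mitochondrial mRNAs also varied across the line, with 7 of 7 lower for DL1, 6 lower for WT and 5 higher for DL7 against the same EV libraries.

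Some cell cycle genes were called, where 9.64% of all genes were higher and 7.47% lower. S phase genes were higher in 13 of 38 and lower in 0, with a median log2 fold change of 0.13. Fen1, a flap endonuclease gene, held 187 and 196 CPM in DHMG, against 154 and 139 CPM in EV (1.30-fold, SE 0.07, adjusted p = 5.37e-05), but the call was lost with counts that ignore strand (adjusted p = 0.366). The helicase genes Mcm2 and Mcm5 rose 1.23-fold and 1.22-fold, and Cdc6, a licensing factor gene, 1.38-fold. Without EV replicate 1 the count was 8. Against the same EV libraries 13 were higher and 2 lower with WT, 5 higher with DL1 and 0 with DL2, DL6 and DL7. G2 and M phase genes were lower in 9 of 38 and higher in 0, with a median of -0.12. Mki67, which encodes the Ki-67 antigen, held 931 and 883 CPM in DHMG, against 1146 and 1142 CPM in EV (1.26-fold lower, SE 0.05, adjusted p = 6.44e-07). Smc4, a condensin gene, and the centromere genes Cenpf and Cenpe fell 1.36-fold, 1.28-fold and 1.29-fold. In DHMG against WT 16 of the 38 were lower and 0 higher.

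Replication-dependent histone genes, whose mRNAs end in a stem-loop in place of a poly(A) tail, were higher in 31 of 54 and lower in 1, where 9.64% of all genes were higher and 7.47% lower. Their median log2 fold change was 0.28. Hist2h2bb held 135 and 135 CPM in DHMG, against 37.8 and 38.2 CPM in EV (3.55-fold, SE 0.14, adjusted p = 1.23e-14). Hist1h4n held 58.3 and 53 CPM in DHMG and 19.1 and 18.3 CPM in EV. Hist1h1a, a linker histone gene, rose 1.37-fold and Hist1h2ai 1.51-fold. Hist2h2be, whose mRNA can also be polyadenylated, was the 1 lower. Many of these genes are near-identical, so reads can be split between them. After correction for length and GC content 21 were higher, 1 lower and the median was 0.17. Against the same EV libraries 26 were higher with WT, 13 with DL1, 11 with DL2 and 0 with DL6 and DL7. WT had 1 lower and DL7 had 2 lower.

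Of 17 genes for factors of the T lineage 1 was called higher and 4 lower, where 9.64% of all genes were higher and 7.47% lower, with a median log2 fold change of -0.15. Bcl11b, a factor of T cell commitment, held 457 and 483 CPM in DHMG, against 594 and 582 CPM in EV (1.25-fold lower, SE 0.06, adjusted p = 3.92e-05). Tcf12, an E protein gene, fell 1.16-fold and Ikzf1, the Ikaros gene, 1.15-fold. Ikzf3 was the remaining gene lower. Ets2, an ETS factor gene, was higher, at 66.4 and 73.1 CPM in DHMG against 52.0 and 50.7 CPM in EV (1.35-fold, SE 0.10, adjusted p = 0.00197). Without DHMG replicate 1 or 2, and after length and GC correction, 2 were lower, and Ets2 was not called without DHMG replicate 2. The call of Ikzf1 was lost without any 1 of the 4 libraries, and that of Tcf12 after the correction. WT against the same EV libraries had 12 lower and 0 higher.

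The direct test of DHMG against WT separated several of these genes. Over all genes 1007 were higher in DHMG than in WT (9.21%) and 611 lower (5.59%). The total of 1618 (14.8%) became 824 or 982 without DHMG replicate 1 or 2, 970 or 1034 without WT replicate 1 or 2, and 1020 by DESeq2. Of the 17 T lineage factor genes 9 were higher in DHMG than in WT and 1 was lower, with a median log2 difference of 0.23. Tcf12 held 584 and 590 CPM in DHMG, against 463 and 457 CPM in WT (1.28-fold, SE 0.05, adjusted p = 1.06e-06). Ets2 was 1.84-fold higher and Ikzf1 1.17-fold higher in DHMG. Bcl11b did not pass (adjusted p = 0.0527), at 457 and 483 CPM in DHMG and 418 and 422 CPM in WT.

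Single genes from other lists were also higher with DHMG than with WT. Itga4, an integrin chain gene, held 378 and 389 CPM in DHMG, against 183 and 182 CPM in WT (2.10-fold, SE 0.06, adjusted p = 3.70e-19). Itgae, the integrin chain CD103, held 7.06 and 8.22 CPM in DHMG and 3.27 and 2.28 CPM in WT (2.66-fold, SE 0.32, adjusted p = 0.00142). Gzma, the granzyme A gene, was 1.79-fold higher, and Ikzf2, the Helios gene, 1.38-fold higher in DHMG. Against EV Itga4, Itgae and Ikzf2 were called lower with DHMG, 1.11-fold, 2.30-fold and 1.40-fold, and Gzma was not called (adjusted p = 0.313). The call of Itga4 against EV (adjusted p = 0.049) was lost without DHMG replicate 1 or 2 or EV replicate 1.

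Other genes were lower with DHMG than with WT. Ighm, the immunoglobulin heavy chain gene, held 1.31 and 1.83 CPM in DHMG, against 16.2 and 20.2 CPM in WT (11.5-fold lower, SE 0.35, adjusted p = 9.34e-11). In EV it held 0.948 and 2.05 CPM, and DHMG against EV was not called (adjusted p = 0.934). H2-T22, a nonclassical MHC gene, was 1.58-fold lower in DHMG than in WT. Nrarp, a Notch target that dampens the pathway, held 232 and 231 CPM in DHMG, against 316 and 311 CPM in WT and 181 and 165 CPM in EV, so it was 1.34-fold above EV and 1.35-fold below WT. Of the 1054 genes called higher in DHMG than in EV 392 were also higher than in WT, 14 were lower and 648 were not called. Of the 817 called lower 187 were also lower than in WT, 88 were higher and 542 were not called.

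Genes of TCF-1's own pathway were called in part, where 9.64% of all genes were higher and 7.47% lower. Of 18 TCF and LEF factors and partners tested Tcf7 and Hdac2 were higher and Tle2, Gsk3b, Apc and Bcl9l lower. Bcl9l, a coactivator gene of beta-catenin, held 38.9 and 39.9 CPM in DHMG, against 53.8 and 58.4 CPM in EV (1.42-fold lower, SE 0.12, adjusted p = 0.00159). Gsk3b and Apc, genes of the complex that degrades beta-catenin, fell 1.19-fold and 1.22-fold. After correction for length and GC content 0 of these were lower, and without DHMG replicate 1 or 2 or EV replicate 2 the count was 2. Of 10 genes that Wnt signalling induces 3 were lower and 0 higher, namely Kremen1, Znrf3 and Ephb2. This count was 0 after the correction and without DHMG replicate 1, and 1 without DHMG replicate 2 or EV replicate 2. The motif CTTTGA or TCAAAG occurred in 10.2% of the 675 promoters of genes called higher and in 9.85% of the 619 of genes called lower. It occurred in 11.9% of the 7619 promoters of genes tested and 15.2% of all 19113.

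Genes of T cell receptor chains and signalling were higher in 4 and lower in 6 of 24, where 9.64% of all genes were higher and 7.47% lower. Zap70, the kinase gene downstream of the receptor, held 34.2 and 30.8 CPM in DHMG, against 56.4 and 52.6 CPM in EV (1.67-fold lower, SE 0.12, adjusted p = 7.30e-06). Cd3g, a receptor chain gene, held 395 and 399 CPM in DHMG and 305 and 303 CPM in EV (1.31-fold, SE 0.07, adjusted p = 3.11e-05). Ptprc, the CD45 gene, fell 1.22-fold, and Grap2, an adaptor gene, 1.42-fold. Only 2 genes were higher in each fit that left out 1 of the 4 libraries. Of 16 stage markers and cytokine receptors Cxcr4, a chemokine receptor gene, rose 1.40-fold, and Itgae, Ccr9 and Itga4 fell. Without DHMG replicate 1 or 2 or EV replicate 1 only 1 of these 3 was lower. Of 13 Notch response genes Hes1 rose 1.36-fold with Nrarp, and Notch3 fell 1.23-fold. The call of Hes1 was lost without DHMG replicate 1 or EV replicate 1, and those of Hes1 and Notch3 after length and GC correction, which gave 3 of the list higher and 0 lower.

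Genes of other lineages were near 0 or low in both groups. The T lineage markers Cd3e, Cd3g, Thy1, Il2ra, Notch1, Ptcra, Bcl11b and Rag1 summed to 4484 and 4480 CPM in DHMG, against 4419 and 4440 CPM in EV. Markers of B cells, natural killer cells, stroma and red cells stayed under 2 CPM in DHMG, and under 4 CPM in EV. The mast cell gene Cpa3 held 17 and 19.8 CPM in DHMG, against 40.9 and 39.9 CPM in EV (2.21-fold lower, SE 0.16, adjusted p = 5.51e-07), with Fcer1a and Ms4a2, the defining markers beside it, at 0. The myeloid gene Itgam held 7.06 and 10.4 CPM in DHMG and 17.6 and 18.9 CPM in EV (2.12-fold lower, SE 0.25, adjusted p = 0.00126), a call lost without DHMG replicate 1. Of 9 innate lymphoid genes 4 were lower, where 7.47% of all genes were, namely Rora 2.44-fold, Nfil3 1.65-fold, Ikzf2 1.40-fold and Bcl11b 1.25-fold. The call of Nfil3 was lost without DHMG replicate 2 or either EV replicate.

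The remaining lists are set beside the same 9.64% of all genes higher and 7.47% lower. Interferon response genes were lower in 4 of 20 and higher in 0, among them Mx1 at 19.6 and 18.3 CPM in DHMG against 32.9 and 29.2 CPM in EV (1.64-fold lower, SE 0.17, adjusted p = 0.00201). Without DHMG replicate 2 or EV replicate 1 the count was 2. Genes of the p53 response were higher in 4 of 17 and lower in 1. Cdkn1a, which encodes the cell cycle inhibitor p21, held 12.8 and 11.6 CPM in DHMG, against 6.91 and 5.12 CPM in EV (2.00-fold, SE 0.26, adjusted p = 0.00466). Its level in DHMG lay above all 12 others, and its call was lost without DHMG replicate 1 or EV replicate 2. The count of 4 was 1 without DHMG replicate 1 and 2 without any 1 of the other 3 libraries. Cholesterol synthesis genes were lower in 3 of 24, and in 1 without either DHMG replicate or EV replicate 1. Genes of MHC class I presentation were higher in 3 of 11, and in 1 without those same libraries. Of 12 early stress genes 1 fell, the AP-1 gene Jund, 1.49-fold. Of 21 RNA polymerase III genes 3 were higher and 1 lower, and without any 1 library 0 or 1 were higher.

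Short noncoding RNAs belong to the classes by which the DHMG libraries stood apart, and many were higher in them. The filter on low counts let many of them in through the DHMG libraries alone, and such genes had to differ. Of 40 spliceosomal RNA genes tested 16 passed without the DHMG libraries, and 9 of the 16 were higher. Of 100 snoRNA genes 84 so passed, and 50 were higher. Of 19 nuclear ribosomal RNA genes 6 so passed, and 5 were higher, with 0 lower in any of the 3 classes. Snord87, a guide RNA of ribosomal RNA modification, held 39.5 and 46.3 CPM in DHMG, against 2.71 and 3.07 CPM in EV (14.8-fold, SE 0.25, adjusted p = 5.23e-17). Snord22 rose 6.08-fold and Snord17 4.97-fold. Gm42418, on the ribosomal RNA repeat annotated at GRCm38 chromosome 17, positions 39843013 to 39848788, rose 6.49-fold (SE 0.09, adjusted p = 1.48e-26). The size of this rise depends on the processing, since its log2 fold change ran from 0.767 to 2.79 over the alternatives.

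The 5 noncoding genes with the largest rises were n-R5s193, a 5S ribosomal RNA gene, and the small RNA genes Gm22129, Gm26128, Gm25064 and Gm22003. None of the 5 passes the filter without the DHMG libraries, so they had to differ. The reads of n-R5s193 numbered 28 and 37 in DHMG, against 1 and 0 in EV. These genes have many near-identical copies, and their counts depend on which copy a read matched. The largest falls among other noncoding genes were in Lockd, Gm4673, Gm43813, AI480526 and Gm20033. Lockd, a noncoding RNA beside the Cdkn1b gene, held 0.784 and 2.13 CPM in DHMG and 4.06 and 6.14 CPM in EV (3.53-fold lower, SE 0.48, adjusted p = 0.00517), a call lost without DHMG replicate 1 or EV replicate 2. The call of Gm4673 was lost without any 1 of the 4 libraries and by DESeq2. That of Gm43813 was lost without DHMG replicate 2 or EV replicate 1, and that of AI480526 without DHMG replicate 1. That of Gm20033 was lost without DHMG replicate 2 or EV replicate 2, by DESeq2, with counts that ignore strand and after length and GC correction.

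Changes also followed gene length. In the 2179 genes with the shortest exons, up to 2020 bases, 340 were higher and 34 lower, with a median log2 fold change of 0.13. In the 2179 with the longest, from 7256 bases, 129 were higher and 362 lower, with a median of -0.09. The medians for WT against the same EV libraries were 0.15 and -0.13 in these sets. By GC content the medians were 0.03 in the 2180 genes with the lowest share and -0.08 in the 2179 with the highest for DHMG over EV.

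A construct labelled HMGd, which the labels do not set against DHMG, had been put into primary progenitors with Tcf7 deleted (Tcf7eGFP fl/fl Cre+) and grown with OP9-DLL1 stroma, a feeder layer with a Notch ligand, for 7 days. DN1 cells, the earliest T cell progenitors, were sorted. The 5 HMGd and 6 EV libraries were summed to 2 replicates each by their B number. Tcf7 stood at 964 and 792 CPM in HMGd cells and at 3.33 and 4.26 CPM in EV cells (234-fold, SE 0.14, adjusted p = 2.22e-14). It was the only gene called among 15010 tested, or 0.00666%. DESeq2's Wald test called 13 genes, edgeR called 75 without HMGd replicate 1, and 1143 genes (7.61%) had an unadjusted p under 0.05. The groups did not overlap in 35.8% of genes. The common coefficient of variation between replicates was 4.48% in the line and 9.2% in the primary cells.

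The genes called in the line were set beside their values in DN1 cells, where none of them but Tcf7 was called. Of those tested in both, the sign was the same in 9 of 9 glycolysis genes, 11 of 15 low-oxygen genes, 18 of 22 ribosome biogenesis genes, 9 of 10 heat shock genes and 4 of 4 interferon response genes. It was the same in 6 of 58 ribosomal protein genes, 4 of 32 histone genes, 2 of 13 nuclear respiratory chain genes and 0 of 6 mitochondrial mRNAs. Unfolded protein response genes gave 7 of 10, amino acid response genes 5 of 12 and S phase genes 4 of 13. T cell receptor genes gave 3 of 9, G2 and M phase genes 2 of 9 and MHC class I genes 0 of 3. The share over all genes called was not computed, so these counts have no background to be read against. Of the 15 low-oxygen genes lower in the line 0 were called in DN1, and the list's median log2 fold change there was -0.07. Ndrg1 held 59.6 and 63.9 CPM with HMGd, against 64.2 and 64.4 CPM with EV. The Y genes Ddx3y, Kdm5d and Uty had log2 fold changes of -0.00, 0.13 and 0.31, none of them called. Ribosomal protein genes had a median of 0.28 in the line and -0.14 in DN1, and mitochondrial mRNAs -0.28 in the line and 0.42 in DN1. A joint fit of 30 libraries and summed replicates, chosen after the data had been seen, tested whether the change against EV differed between the line and DN1 cells. It did in 556 of 15069 genes (3.69%), with the change more positive in the line in 376 and more negative in 180. Among these were 30 of 80 ribosomal protein genes, more positive in the line, 6 of 27 low-oxygen genes, more negative, and 7 of 8 mitochondrial mRNAs, more negative. The line and the primary cells also differ in cell type and culture, and the DHMG libraries of the line carry the difference in makeup described above. The DN1 libraries differed in makeup in the other direction. Multimapping reads per 100 reads in genes were 17.04 to 24.4 in HMGd and reached 32.9 in EV, with overlap. Median log2 fold changes in DN1 were -0.57 for snoRNA, -0.59 for spliceosomal RNA and -0.74 for ribosomal RNA genes, with 0 called. Of the 376 genes above, 53, 34 and 15 were of these classes. How far makeup accounts for the differences between the line and DN1 was not tested.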

How the data were processed

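RNA was counted by gene in 59 mouse samples, of which 58 libraries were used, and the 14 cell line libraries carry this account. Per the submitters' processing notes the authors aligned reads with STAR 2.5.0a to GRCm38 and counted with HTSeq 0.6.1. Per the labels' protocols, libraries were made with a stranded total RNA kit that keeps RNA without a poly(A) tail, and read as pairs of 38 and 37 bases. The deposited values are raw counts per gene for each strand setting, and the reverse-strand counts were used, since they hold most gene reads. The labels give the molecule as genomic DNA, while the values are RNA counts. Genes with low counts were removed with filterByExpr, libraries were scaled by TMM, and edgeR 4.0.16's quasi-likelihood test was fitted over all 14 libraries (7 residual degrees of freedom) in R 4.3.3, with a prior count of 0.125 and a threshold of 0.05. DESeq2 1.42.0 was an alternative. Only the main edgeR fits of the line and of the primary cells were tried on simulated counts, which held no batch difference. The 16 summed primary replicates had their own fit of 15010 genes. A gene matched the annotation for 45143 of 45706 identifiers. Counts from 3.82 to 9.48 M per cell line library limit low genes, since a group's floor is 3 reads. Named genes were Tcf7, the 12 largest protein-coding and 5 largest other changes in each direction with a mean of at least 5 CPM, up to 4 members of each gene list by adjusted p, and genes called in both systems. Where another gene was named, it was chosen after its values were seen. The members and lists were chosen with earlier results of these data known. Alternatives changed scaling, test, filter, strand, genes, libraries, length and GC correction, and replicates.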

Additional observations from a re-analysis of the deposited data

Results flagged for a closer look

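Forward-strand reads, which the reverse-strand counts leave out, made up 8.559% and 8.486% of stranded gene reads in DHMG replicates 1 and 2, above the EV libraries. Multimapping reads numbered 56.95 and 57.06 per 100 reads in genes in the same DHMG libraries, again above EV. With counts that ignore strand 1849 genes were called between DHMG and EV, and 1717 of the 1871 calls were shared in the same direction. The part of multimapping reads in the gene results was not tested.

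In the joint fit of cell line and primary libraries, edgeR's quasi-likelihood test of the difference called 556 genes whose change against EV differed between DHMG in the line and HMGd in DN1 cells. The following values are the log2 change in the line minus that in DN1. Ndrg1 had -8.532, a fitted value that rests on 1 read in DHMG, and Bnip3 had -2.366 and Kdm3a -0.7346. Tcf7 had -5.118, with reads of Tcf7 also present in EV of the line. The Y genes Kdm5d, Ddx3y and Uty had -4.182, -3.81 and -3.009. Txnip had -1.789, Fam102a -1.427 and Map3k14 -1.425. Rps29 had 1.431, Hist1h4n 2.165, Hist2h2bb 2.349, Gm10800 2.604 and Lars2 2.96. In this fit Lars2 had log2 changes of 2.14 in the line and -0.82 in DN1. Gm42418, on the ribosomal RNA repeat, had 2.68 and -0.83, and whether Lars2 counts hold ribosomal RNA reads was not tested. A separate run or sub-line cannot be told apart from the construct for any of these. The DN1 values carry the difference in makeup between the HMGd and EV libraries given above.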

How the results depend on the processing

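Among alternative values of the named genes 1768 kept direction and side of the threshold, 172 lost the call, 10 gained it and 0 reversed. For DHMG against EV DESeq2's Wald test called 1198 genes, and leaving out 1 library gave 1052 to 1239. For DHMG against WT these were 1020 and 824 to 1034. For HMGd against EV in DN1 DESeq2 called 13 genes, no filter gave 180, counting each library under its T number as its own replicate in place of the summed B replicates gave 388, and leaving out 1 replicate gave 1 to 75. The cause was not tested, except that leaving out a library leaves fewer samples. Without the filter on low counts 704 genes were higher and 705 lower in DHMG against WT. Same-numbered replicates share only a number: their deviations correlated at 0.02 for DHMG and EV, -0.00 for DHMG and WT and 0.17 for DN1. With the replicate number as a block 1905, 1648 and 3 genes were called. Depth limits low genes most in DHMG, with 4.46 and 3.82 M reads in genes.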
